A study of Mus musculus with 6 samples.

Results

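The genes described are 52 genes of the lysosome, all of them found by symbol, 1 row each, among 54532 genes in a count table from DC2.4 cells, an immature mouse dendritic cell line. They encode lysosomal membrane proteins, soluble enzymes and their helpers, and 15 parts of the proton pump. The lysosome is the acidic compartment in which a cell breaks down proteins, lipids, sugars and nucleic acids taken up from outside or delivered by autophagy. In dendritic cells it is also where swallowed antigen is cut into peptides, and these cells hold acidification and proteolysis in check so that peptides survive for presentation to T cells. The vacuolar-type proton ATPase drives protons into the lumen: its V1 sector in the cytosol splits ATP, and its V0 sector in the membrane carries the protons.

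RNA sequencing libraries came from 3 samples labelled as overexpressing Vdbp and 3 samples with the empty vector. Vdbp is the vitamin D-binding protein of blood plasma, whose mouse gene has the symbol Gc. Both groups carried the vector that the labels write ptt5, were passaged 48 h after transfection and were then put under selection, so the selection is common to both. The labels do not say whether a group is 1 clone or a pool, or whether its 3 samples came from separate transfections, so the p-values rest on the spread among these 6 libraries, which may be technical. Their cell type field reads bone marrow derived dendritic cells, beside the cell line DC2.4.

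Library totals lay between 15563800 and 16710975 counts. Gc had 0 counts in all 6 libraries, where 3 counts would be 0.177 to 0.192 CPM (counts scaled to the library total; a limit for counting error only), so the groups are named here by their labels. The labels mention an RT-qPCR check of Vdbp, whose values were not used here. All 10 dendritic and myeloid markers examined were tested, with a summed level of 1976 to 2099.7 CPM in the libraries labelled Vdbp and 2016 to 2112 in the empty-vector libraries. Csf1r (group means of 614 and 580 CPM in the same order) and Adgre1 (583 and 671) were the highest. Itgax had 51.0 and 49.6, and Cd80 was the lowest with 15.8 and 17.5. Markers of T cells, B cells, epithelial cells and erythroid cells summed to at most 0.355 CPM in any library, those of fibroblasts to at most 2.25 and those of neutrophils to at most 4.08. The libraries differed in how the level of a gene followed its GC content, most in Vdbp replicate 1 and empty-vector replicate 2 (Spearman's rho across tested genes of 0.73 and −0.62).

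None of the 52 genes differed between the groups by the test across all genes. All 52 passed the filter on low counts, and edgeR's quasi-likelihood test gave 0 of them an adjusted p under 0.05, where 0% of 12844 tested genes passed. At an unadjusted p under 0.05 there was 1 member, Lyst, which was lower in the libraries labelled Vdbp. Over all tested genes 5.35% passed that level, 2.81% higher and 2.54% lower. DESeq2 also called 0 of the 52, against 0.0856% of all genes. The log2 fold change, libraries labelled Vdbp over empty vector, was above 0 for 25 members and below 0 for 27 (48.7% of all tested genes were above 0), with a median of −0.01, the same as over all tested genes (−0.01). Without Vdbp replicate 1 it was above 0 for 12 members (49.2% of all tested genes), and without both that library and empty-vector replicate 2 for 7 members (49.4%), an alternative added after seeing the data. The 95% interval lay within 1.5-fold for 50 members (96.2%; all genes 70.7%) and within 2-fold for 52 (all genes 89.3%). The median SE was 0.11 for the members and 0.14 for all tested genes, and the members were the more abundant, with a median level of 38.1 FPKM against 6.52 FPKM. In bulk samples, fewer cells that make a transcript and less transcript per cell cannot be told apart.

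**Figure D1:**
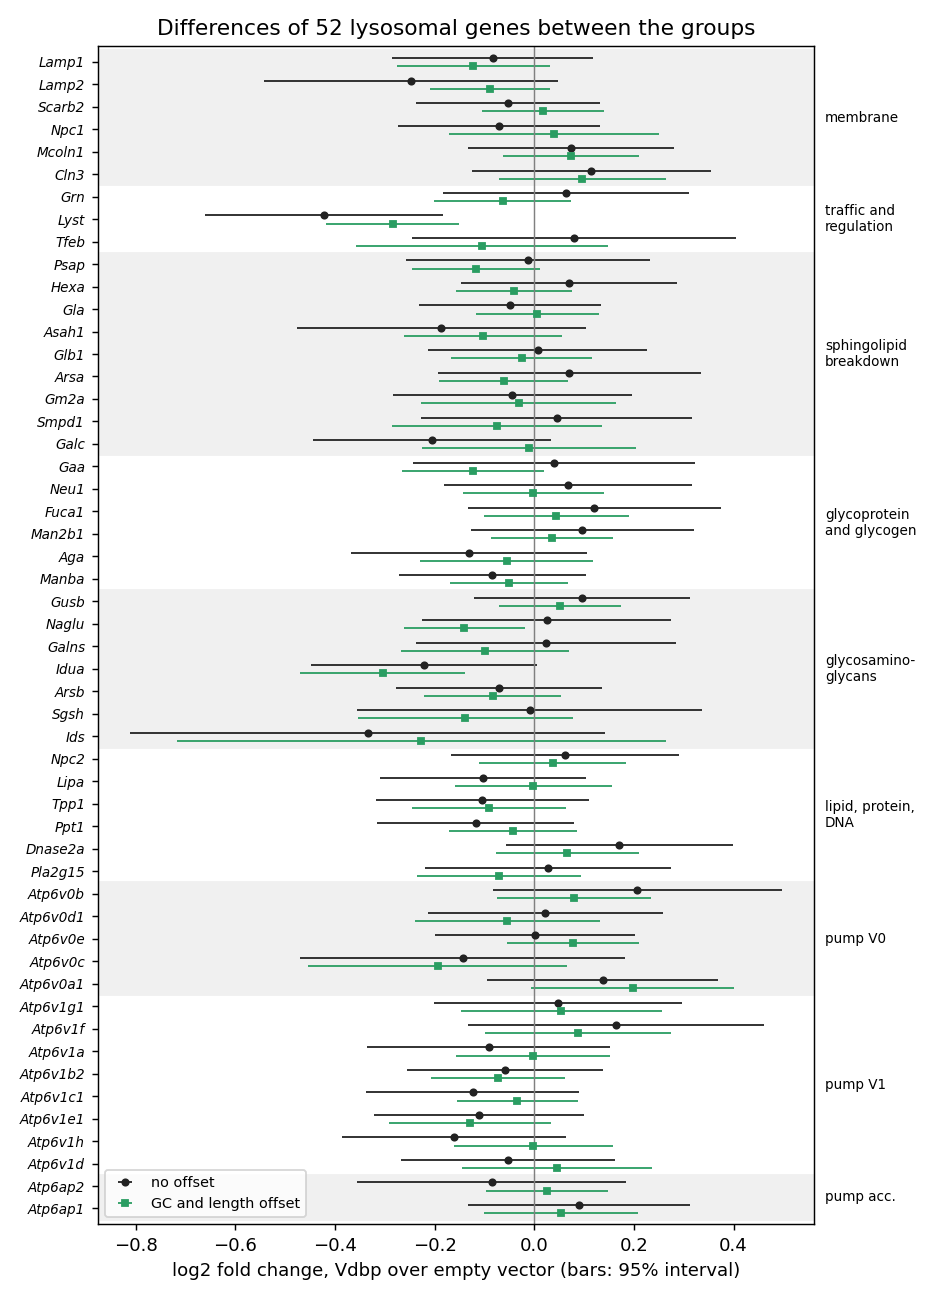
Log2 fold change of each of the 52 lysosomal genes, libraries labelled Vdbp over empty-vector libraries (3 each), with 95% intervals, grouped by role. Black circles are the edgeR fit and green squares the same fit with an offset for GC content and gene length. Without the offset the interval of 1 gene, Lyst, leaves out 0, and with it those of Lyst, Idua and Naglu do.

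Levels are given per length, as FPKM (counts per kilobase of the deposited gene length, scaled here to the TMM-adjusted library total). Ranks, ratios and shares between genes are in this unit. They depend on the deposited length, which may differ from that of the transcripts present. Lipa, for example, has 2969 deposited bases and 6780 exonic bases in GENCODE M21. The levels spanned 470.3-fold, from Ids at 1.17 FPKM to Psap at 550.5 FPKM over the 6 libraries. There were 11 members above 100 FPKM, 35 between 10 and 100 FPKM, and 6 below 10 FPKM. Psap, Grn and Lamp1 together held 38.0% of the summed FPKM of the 52. Between libraries a member's level had a coefficient of variation of 2.20% (Gla) to 24.1% (Ids), with a median of 9.42%. The 52 genes held 1.47%, 1.36% and 1.38% of all counts in Vdbp replicates 1, 2 and 3, and 1.42%, 1.41% and 1.42% in empty-vector replicates 1, 2 and 3.

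**Figure D2:**
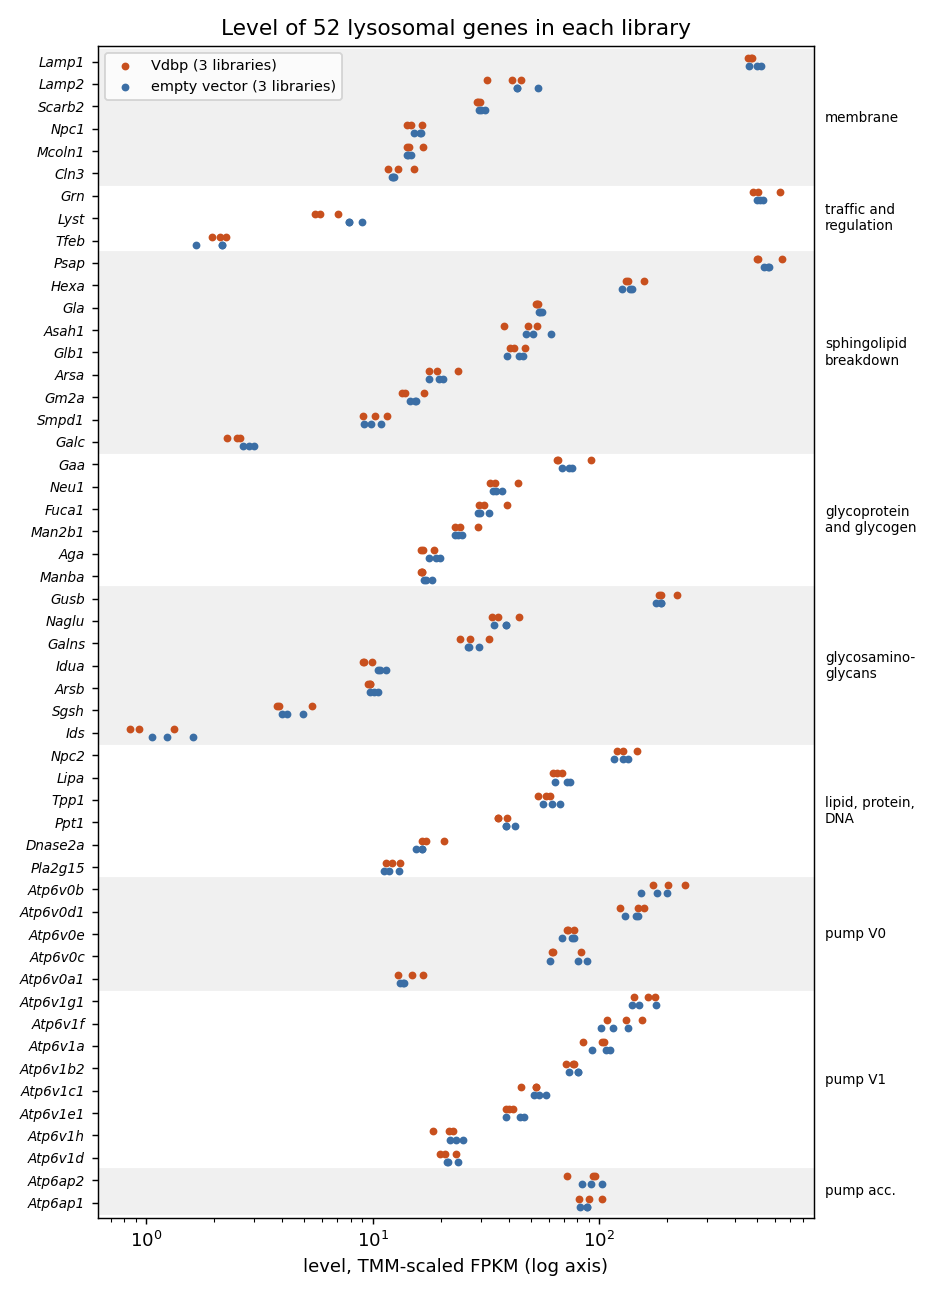
Level of the 52 lysosomal genes in each library, in TMM-scaled FPKM on a log axis, by role and ordered by level within a role. Each point is 1 library, orange for the libraries labelled Vdbp and blue for empty vector. Levels run over more than 2 orders of magnitude from Ids to Psap, while the points of a gene lie close together.

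Many lysosomal genes are known targets of TFEB and its relatives TFE3 and MITF, which bind the palindrome CACGTG, flanked for instance as TCACGTGA. The letters were searched in RefSeq promoter windows (GRCm38.p6, 250 bases before to 50 bases after a RefSeq start), where 44 of the 52 genes matched by symbol. A RefSeq start can differ from that of the deposited gene. The Cln3 window, 126583187 to 126583486, lies inside the deposited gene, which begins on the minus strand at 126585817. Being palindromes, the motifs read the same on both strands, and the shorter lies inside the longer. CACGTG occurred for 13 of 44 members with a window (29.5%). It occurred for 8.09% of all 27025 genes with a window and for 11.99% of the 9301 of them that were tested. TCACGTGA occurred for 6 members (13.6%), against 1.12% of all genes with a window and 2.25% of the tested ones. A match is a description of the letters and not evidence of binding. The windows with the 8-letter form, and the Lamp1 promoter with its 4 copies of CACGTG, are shown because they carry the sequence that these members share, with the matching letters in capitals.
Cln3, chr7:126583340-126583369, minus strand: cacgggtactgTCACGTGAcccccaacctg
Mcoln1, chr8:3500462-3500491, plus strand: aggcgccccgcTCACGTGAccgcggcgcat
Gla, chrX:134601182-134601211, minus strand: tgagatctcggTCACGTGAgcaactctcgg
Gla, chrX:134601215-134601244, minus strand: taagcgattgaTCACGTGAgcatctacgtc
Atp6v0d1, chr8:105566050-105566079, minus strand: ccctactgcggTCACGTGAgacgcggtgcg
Atp6v0e, chr17:26676387-26676416, plus strand: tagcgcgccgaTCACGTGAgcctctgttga
Atp6v1a, chr16:44139373-44139402, minus strand: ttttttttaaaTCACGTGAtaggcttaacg
Lamp1, chr8:13159094-13159157, plus strand: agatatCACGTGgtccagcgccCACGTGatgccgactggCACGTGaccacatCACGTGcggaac
The 13 members with CACGTG had a median log2 fold change of 0.02 (9 above 0). The other 31 members with a window had a median of −0.04 (14 above 0), and 48.7% of all tested genes were above 0. With the offset for GC content and length described further on, these medians were −0.02 and −0.04. Then 5 of the 13 and 11 of the 31 were above 0, against 49% of all tested genes.

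Tfeb itself, the transcription factor, was among the least abundant members. It had 2.25, 1.95 and 2.13 FPKM in the libraries labelled Vdbp, against 2.16, 1.66 and 2.17 FPKM in the empty-vector libraries. The groups overlapped, and the log2 fold change was 0.08 (SE 0.15; edgeR adjusted p 0.873). Of its relatives, Tfe3 was the most abundant at 11.5 ± 1.39 FPKM with the Vdbp label and 10.6 ± 0.631 FPKM with empty vector (SD, n = 3 each). Mitf averaged 7.88 ± 0.821 and 9.57 ± 1.07 FPKM, and Tfec 3.84 ± 0.870 and 4.14 ± 0.360 FPKM, in the same order. Within a library the level of Tfeb was 0.167 to 0.205 times that of Tfe3.

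Lyst, a very large protein that regulates lysosome size and traffic and is mutated in beige mice, was the member with the smallest p. Lyst (ENSMUSG00000019726, chromosome 13, 13590397 to 13778803) had 5.57, 5.86 and 7.02 FPKM in the libraries labelled Vdbp, against 7.85, 9.01 and 7.84 FPKM in the empty-vector libraries. These rest on 1563 to 1918 counts with the Vdbp label and 2231 to 2606 with empty vector. The 3 libraries labelled Vdbp were the lowest of the 6. The log2 fold change was −0.42 (95% interval −0.66 to −0.18; unadjusted p 0.00237), the rank by p was 27 among all tested genes, and the adjusted p was 0.781 with edgeR's quasi-likelihood test. With the offset for GC content and length the log2 fold change was −0.28 (edgeR adjusted p 0.373). In edgeR fits without the offset and with 1 library left out, the log2 fold change of Lyst was −0.53 without Vdbp replicate 3. It was −0.35 without empty-vector replicate 2 or Vdbp replicate 1, the other end of the range. The adjusted p of Lyst was at least 0.325 in these fits. With all 6 libraries the adjusted p was 0.286 with DESeq2 and 0.0530 with edgeR without a filter on low counts, where 89 of 24135 genes had an adjusted p under 0.05. The count of members that were lower at an unadjusted p under 0.05 was 1 to 3 when a library was left out. It was 3 without Vdbp replicate 1 (2.10% of all tested genes were lower at that level), 2 without Vdbp replicate 2 (2.07%) and 2 without Vdbp replicate 3 (5.48%). Without empty-vector replicate 1, 2 or 3 it was 1 each time (1.62%, 1.12% and 3.43% of all tested genes).

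Grn encodes progranulin, a precursor cut into granulins in the lysosome, and was the second most abundant member. It had 628, 477 and 507 FPKM in the libraries labelled Vdbp, against 528, 499 and 515 FPKM in the empty-vector libraries. Vdbp replicate 1 was the highest of the 6 and Vdbp replicate 2 the lowest, so the spread within that group exceeded the difference between the groups (log2 fold change 0.06, SE 0.11; edgeR adjusted p 0.864).

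Among the lysosomal membrane proteins Lamp1 was the most abundant. Lamp1 and Lamp2 are the heavily glycosylated proteins that line the inner face of the membrane, and Lamp2 also serves forms of autophagy. Lamp1 had 470.0, 454 and 477 FPKM in the libraries labelled Vdbp, against 501, 522 and 462 FPKM in the empty-vector libraries, and the groups overlapped (log2 fold change −0.08, SE 0.09; edgeR adjusted p 0.806). Lamp2 averaged 39.5 ± 6.86 FPKM with the Vdbp label and 47.0 ± 6.04 FPKM with empty vector (SD, n = 3 each). In FPKM, Lamp1 was 9.68 to 14.7 times as abundant as Lamp2 within a library. Before division by length, at 2675 and 9552 deposited bases, they were closer, with means of 1287 and 413 CPM. The difference in Lamp2 (log2 fold change −0.25) was −0.09 with the GC and length offset. Scarb2, the receptor that carries the enzyme glucocerebrosidase to lysosomes, was among the steadiest members, with 29.4 ± 0.479 FPKM and 30.5 ± 0.939 FPKM in the same order. Npc1, which exports cholesterol through the membrane, averaged 15.2 ± 1.24 and 15.97 ± 0.583 FPKM, the calcium channel Mcoln1 15.2 ± 1.40 and 14.4 ± 0.267 FPKM, and Cln3, a membrane protein lost in a juvenile form of neuronal ceroid lipofuscinosis, 13.3 ± 1.81 and 12.3 ± 0.138 FPKM. None of the 6 passed at an unadjusted p under 0.05.

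The enzymes and activators of sphingolipid and glycolipid breakdown ranged over more than 2 orders of magnitude. Psap, the precursor of the saposins that present lipids to their enzymes, was the most abundant of all members. It had 641, 501 and 502 FPKM in the libraries labelled Vdbp, against 560, 534 and 565 FPKM in the empty-vector libraries (log2 fold change −0.01, SE 0.11; edgeR adjusted p 0.975). The level in Vdbp replicate 1 lay above all others and those in replicates 2 and 3 below all others. Grn and Psap ran close together, with a ratio of 0.912 to 1.008 within a library. Hexa, the alpha subunit of beta-hexosaminidase, averaged 141 ± 14.2 FPKM with the Vdbp label and 135 ± 6.84 FPKM with empty vector. Gm2a, the activator that hands the ganglioside to that enzyme, averaged 14.7 ± 1.80 and 15.2 ± 0.495 FPKM.

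Gla and Galc were the members of this group whose libraries did not overlap between the groups. Gla, alpha-galactosidase A, which is deficient in Fabry disease, had 53.1, 53.0 and 53.9 FPKM in the libraries labelled Vdbp, against 54.7, 56.2 and 54.5 FPKM in the empty-vector libraries. All 3 libraries labelled Vdbp were lower, by a log2 fold change of −0.05 (95% interval −0.23 to 0.13; edgeR adjusted p 0.861), which was 0.01 with the GC and length offset. Galc, the galactosylceramidase missing in Krabbe disease, had 2.27, 2.51 and 2.60 FPKM with the Vdbp label, against 2.85, 2.99 and 2.67 FPKM with empty vector. Its libraries labelled Vdbp were likewise all lower, with a log2 fold change of −0.20 (−0.44 to 0.03; edgeR adjusted p 0.781) that was −0.01 with the offset. The ceramidase Asah1, the galactosidase Glb1, the arylsulfatase Arsa and the sphingomyelinase Smpd1 had group means between 9.97 and 53.2 FPKM, with overlapping groups and log2 fold changes of −0.19 to 0.07.

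For glycoprotein and glycogen breakdown, Gaa, the acid alpha-glucosidase that digests glycogen, had the highest level. Gaa had 92.1, 66.2 and 65.5 FPKM in the libraries labelled Vdbp, against 75.8, 68.4 and 73.6 FPKM in the empty-vector libraries. Vdbp replicate 1 was the highest of all 6 and the other 2 libraries labelled Vdbp the lowest, and the log2 fold change of 0.04 (SE 0.13; edgeR adjusted p 0.929) was −0.12 with the offset. Manba, beta-mannosidase, had 16.4, 16.5 and 16.5 FPKM with the Vdbp label, against 18.2, 17.2 and 17.0 FPKM with empty vector. Its groups did not overlap, with a log2 fold change of −0.08 (95% interval −0.27 to 0.10; edgeR adjusted p 0.797). The sialidase Neu1 averaged 37.2 ± 5.83 FPKM with the Vdbp label and 35.5 ± 1.84 FPKM with empty vector (SD, n = 3 each), the fucosidase Fuca1 33.3 ± 5.30 and 30.6 ± 1.76 FPKM, the mannosidase Man2b1 25.6 ± 3.11 and 24.0 ± 0.827 FPKM, and Aga, which cleaves the link between asparagine and sugar, 17.2 ± 1.30 and 18.9 ± 0.984 FPKM. Neu1 and Glb1 act in a complex with the protective protein Ctsa, which was far more abundant, at 616 ± 73.7 FPKM with the Vdbp label and 596 ± 21.1 FPKM with empty vector.

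The enzymes that take heparan, dermatan, keratan and chondroitin sulfates apart held both a very abundant member and the least abundant one. Gusb, beta-glucuronidase, had 220.3, 188 and 185 FPKM in the libraries labelled Vdbp, against 188, 179 and 188 FPKM in the empty-vector libraries (log2 fold change 0.10, SE 0.10; edgeR adjusted p 0.797), with overlapping groups. Idua, the alpha-L-iduronidase (ENSMUSG00000033540, chromosome 5, 108660331 to 108684557), had 9.96, 9.04 and 9.13 FPKM with the Vdbp label, against 11.4, 10.8 and 10.52 FPKM with empty vector, from 601 to 782 counts a library. Here too the 3 libraries labelled Vdbp were the lowest of the 6, and the log2 fold change was −0.22 (95% interval −0.45 to 0.01; edgeR adjusted p 0.781). With the offset it was −0.30 (−0.47 to −0.14; unadjusted p 0.00167, edgeR adjusted p 0.466). Of the exonic bases of Idua in GENCODE M21, 6.30% lie under exons of Dgkq or Slc26a1 on the other strand, and the sources used here do not say whether counting used the strand.

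Ids, iduronate 2-sulfatase, the enzyme that precedes Idua in the breakdown of the same chains, averaged 1.03 ± 0.254 FPKM with the Vdbp label and 1.31 ± 0.281 FPKM with empty vector (SD, n = 3 each). It had 68 to 134 counts a library, the fewest of any member, and its 95% interval was the widest (log2 fold change −0.33, from −0.81 to 0.14). Naglu, Galns, Arsb and Sgsh, which act on heparan, keratan or dermatan sulfate, had group means of 4.35 to 38.0 FPKM and log2 fold changes of −0.07 to 0.02. For Arsb, Dnase2a and Sgsh over 20% of exonic bases (39.9%, 29.99% and 21.6%) are shared with a gene on the other strand, so their levels are uncertain. Naglu was the third member with an unadjusted p under 0.05 in the fit with the offset (log2 fold change −0.14, edgeR adjusted p 0.535), beside Lyst and Idua.

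Among the enzymes of neutral lipid, protein and DNA breakdown, with the cholesterol carrier Npc2, no member passed either threshold. Npc2, which hands cholesterol to Npc1, was the most abundant, with 147, 128 and 120.2 FPKM in the libraries labelled Vdbp, against 128, 116 and 135 FPKM in the empty-vector libraries (log2 fold change 0.06, SE 0.11; edgeR adjusted p 0.857). Its level was 7.58 to 8.84 times that of Npc1 within a library. Dnase2a, the acid DNase that degrades engulfed DNA, had 20.7, 17.2 and 16.6 FPKM with the Vdbp label, against 16.5, 16.5 and 15.5 FPKM with empty vector. It was the only member with every library labelled Vdbp above every empty-vector library (log2 fold change 0.17, 95% interval −0.06 to 0.40; edgeR adjusted p 0.781), and the offset lowered the difference to 0.07. Lipa, the acid lipase for cholesteryl esters, averaged 65.4 ± 3.20 FPKM with the Vdbp label and 70.2 ± 5.69 FPKM with empty vector (SD, n = 3 each), the peptidase Tpp1 57.7 ± 3.52 and 62.1 ± 5.25 FPKM, the thioesterase Ppt1 36.9 ± 1.93 and 40.0 ± 2.19 FPKM, and the phospholipase Pla2g15 12.3 ± 0.895 and 12.04 ± 0.905 FPKM.

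Lyst, Idua, Galc, Manba and Gla below and Dnase2a above were thus the 6 members (11.5%) whose groups did not overlap, where 10.9% of all tested genes did not. Lower levels without overlap were found for 9.62% of members against 5.61% of all tested genes, and higher ones for 1 member against 5.26%. With 1 library left out 7 to 14 members did not overlap, the lowest count without empty-vector replicate 2 (14.8% of all tested genes) and the highest without Vdbp replicate 2 (19.5%). Without both Vdbp replicate 1 and empty-vector replicate 2 there were 21 (32.5% of all tested genes), a number that fewer libraries make larger.

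**Figure D3:**
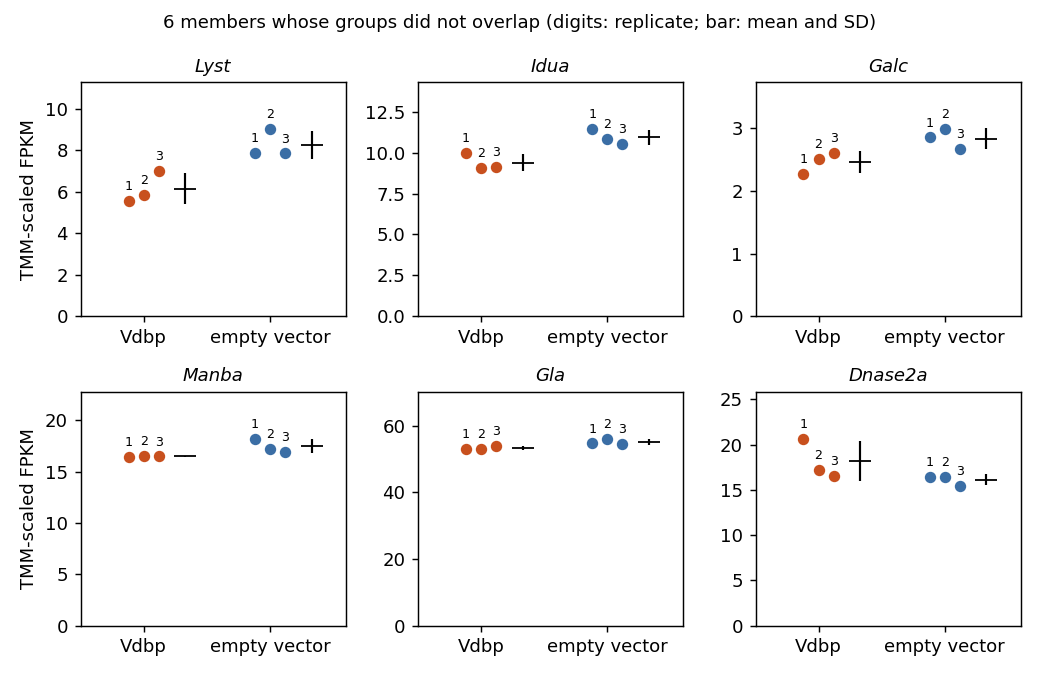
Level in each library, in TMM-scaled FPKM from 0, of the 6 members whose groups did not overlap. Points are libraries with their replicate number, and the line and bar beside them give the mean and SD of 3 libraries. Lyst shows the widest gap relative to its level (6.15 ± 0.765 FPKM with the Vdbp label and 8.24 ± 0.673 FPKM with empty vector), while Gla and Manba differ by little.

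None of the 15 proton pump members differed between the groups at an unadjusted p under 0.05. In the V0 sector, Atp6v0b and Atp6v0c are proteolipids of the ring that turns in the membrane, Atp6v0d1 joins that ring to the stalk, Atp6v0e is a small membrane subunit and Atp6v0a1 is a form of subunit a, which holds the proton channels. Atp6v0b was the most abundant pump member, with 241, 202 and 174 FPKM in the libraries labelled Vdbp, against 180.4, 153 and 201 FPKM in the empty-vector libraries. The groups overlapped, and its log2 fold change of 0.21 (95% interval −0.08 to 0.50; edgeR adjusted p 0.781), the highest of the 52, was 0.08 with the offset. Atp6v0d1 averaged 144 ± 17.6 FPKM with the Vdbp label and 142 ± 9.90 FPKM with empty vector (SD, n = 3 each), and Atp6v0e 74.1 ± 3.18 and 74.1 ± 4.95 FPKM. Atp6v0c averaged 69.6 ± 12.2 and 76.8 ± 14.3 FPKM, and a processed copy, Atp6v0c-ps2, had 34 to 63 counts with the Vdbp label and 33 to 46 with empty vector, so a small part of its reads may be split.

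In the V1 sector, Atp6v1a and Atp6v1b2 form the catalytic head, Atp6v1d and Atp6v1f the central stalk, Atp6v1e1 and Atp6v1g1 the outer stalks, and Atp6v1c1 and Atp6v1h link or regulate the sectors. Atp6v1g1 was the most abundant, with 165, 177 and 144 FPKM in the libraries labelled Vdbp, against 151, 140.5 and 178 FPKM in the empty-vector libraries (log2 fold change 0.05, SE 0.11; edgeR adjusted p 0.902). Per length, the transcripts of subunits that assemble together were not at 1 level. Atp6v1f averaged 132 ± 23.1 FPKM with the Vdbp label and 117 ± 16.2 FPKM with empty vector. Atp6v1d, its partner in the central stalk, averaged 21.4 ± 1.74 and 22.2 ± 1.47 FPKM. Before division by length these 2 genes were closer, at 132.4 and 100.4 CPM over the 6 libraries. Their deposited lengths are 1063 and 4602 bases, so much of the gap in FPKM rests on the length used. Atp6v1a and Atp6v1b2, present in equal numbers in the head, had an FPKM ratio of 1.30 ± 0.180 with the Vdbp label and 1.33 ± 0.159 with empty vector. The other members averaged 50.3 ± 4.28 and 54.8 ± 3.32 FPKM (Atp6v1c1), 40.2 ± 1.40 and 43.4 ± 4.12 FPKM (Atp6v1e1), and 21.0 ± 2.22 and 23.5 ± 1.55 FPKM (Atp6v1h). Log2 fold changes in the V1 sector ran from −0.16 to 0.16. Of its members 2 of 8 were above 0, against 4 of 5 in the V0 sector and 48.7% of all tested genes. With the GC and length offset 3 of 8 in the V1 sector and 3 of 5 in the V0 sector were above 0, against 49% of all tested genes. The V0 members had a higher median GC content than the V1 members. The accessory protein Atp6ap2, which is also known as the prorenin receptor, had 72.3, 94.3 and 96.5 FPKM in the libraries labelled Vdbp, against 84.0, 103 and 91.8 FPKM in the empty-vector libraries (log2 fold change −0.09, SE 0.12; edgeR adjusted p 0.840). The other, Atp6ap1, averaged 91.8 ± 10.7 and 86.2 ± 3.32 FPKM.

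Where a subunit has several genes, most of the transcript came from 1 of them. Of subunit a, Tcirg1, the a3 form typical of osteoclasts and phagocytes and not among the 52, made up 81.3% ± 1.41 of the summed FPKM with the Vdbp label and 80.5% ± 1.33 with empty vector (SD, n = 3 each). Atp6v0a1 made up 9.80% ± 0.782 and 9.78% ± 0.679 and Atp6v0a2 8.94% ± 1.08 and 9.72% ± 0.682, while Atp6v0a4 had 0 counts. Atp6v0d1, Atp6v0e, Atp6v1b2, Atp6v1c1, Atp6v1e1 and Atp6v1g1 each held at least 98.96% of the FPKM of their subunit in every library, where the lowest was Atp6v0d1. Its alternative Atp6v0d2, known from osteoclasts and macrophages, was at 0.874 ± 0.0405 FPKM with the Vdbp label, from 115 counts over 3 libraries, and at 1.28 ± 0.245 FPKM with empty vector, from 173 counts. Its groups did not overlap (log2 fold change −0.55, unadjusted p 0.0308, edgeR adjusted p 0.781), and with the GC and length offset the log2 fold change was −0.44 (unadjusted p 0.0649).

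The differences of the members went with the GC content of their transcripts. Across the 52 genes, which share the same 6 libraries, Spearman's rho between log2 fold change and GC content of the longest transcript was 0.65, and it was 0.51 across all tested genes. Of the 30 members above the median GC content of tested genes (49.5%), 22 had a log2 fold change above 0, with a median of 0.05, and of the other 22 members 3 did, with a median of −0.10. Vdbp replicate 1 was the highest of the 6 libraries for 24 of the 30 GC-rich members and the lowest for 13 of the 22 others. The GC-rich Gaa, Psap, Grn and Atp6v0b, and the GC-poor Lamp2, Asah1 and Atp6ap2, are among those cases. In that library the median deviation from a gene's mean was 0.21 on the log2 scale for the GC-rich members and −0.11 for the others, while in empty-vector replicate 2 it was −0.08 and 0.11.

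An edgeR fit with an offset that removes from each library a smooth trend on GC content and gene length was set beside the first. The rho was then −0.20 across the members and 0.03 across all tested genes. The sign of 17 of the 52 log2 fold changes turned, and 18 members were above 0 where 49% of all tested genes were. The median of the members was −0.04, and over all tested genes it was −0.00. At an unadjusted p under 0.05, 3 members were lower (Lyst, Idua and Naglu) and 0 higher, against 4.64% and 4.27% of all tested genes (8.91% in both directions), and 0 members had an adjusted p under 0.05 (0.0156% of all tested genes).

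**Figure D4:**
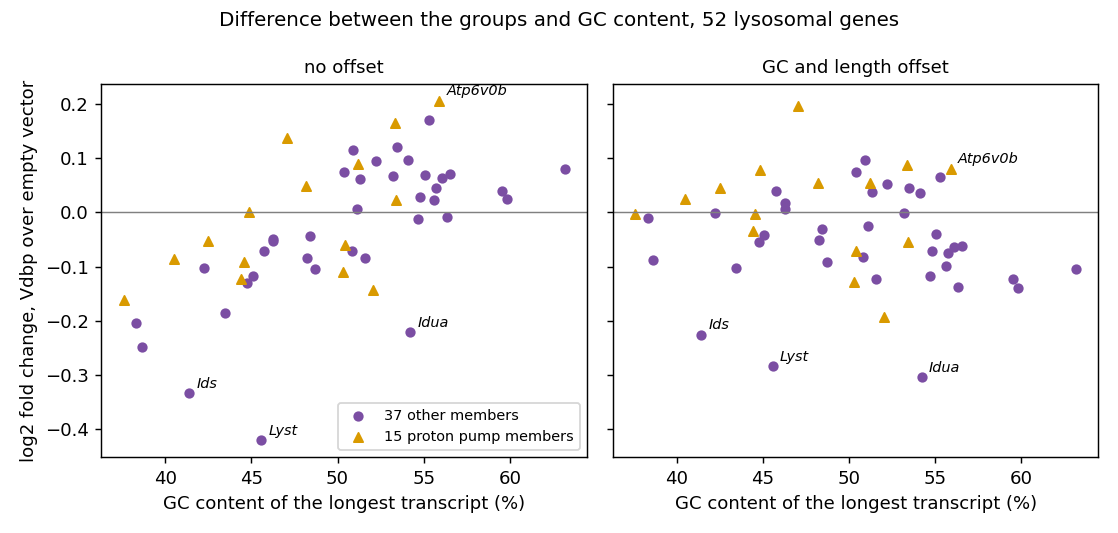
Log2 fold change of the 52 lysosomal genes, libraries labelled Vdbp over empty vector, against the GC content of the longest transcript, without (left) and with (right) the offset for GC content and length. Each point is a gene, and triangles are the 15 proton pump members. Spearman's correlation was 0.65 on the left and −0.20 on the right, and the lowest points were Lyst and Ids on the left and Idua and Lyst on the right.

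The wider lysosomal system was read from 5 further lists, 108 of whose 109 genes were in the table and 96 of which were tested. None of them had an edgeR adjusted p under 0.05, and 4 had an unadjusted p under 0.05, all lower with the Vdbp label, where 2.54% of all tested genes were lower at that level. With the GC and length offset 9 were lower and 0 higher, against 4.64% and 4.27% of all tested genes. Among 21 tested further hydrolases and activators 7 had a log2 fold change above 0. The median was −0.05, and −0.08 with the GC and length offset. Ctsa was the most abundant. Siae, a sialic acid esterase, had the smallest p without the offset (edgeR unadjusted p 0.0322, and 0.0694 with the offset). It had 3.33 ± 0.135 FPKM with the Vdbp label and 3.96 ± 0.102 FPKM with empty vector. With the offset Hgsnat, named after its value was seen, had a smaller p (log2 fold change −0.19, unadjusted p 0.00673, edgeR adjusted p 0.466). Among 25 further membrane proteins and transporters the median was 0.04, with 14 above 0, and −0.04 with the GC and length offset. Cd68, a macrophage glycoprotein of the LAMP family, was the most abundant, at 957 ± 132 and 990.4 ± 88.6 FPKM in the same order, and the amino acid sensor Slc38a9 had the smallest p (unadjusted p 0.0647).

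The further pump subunits and assembly factors had 11 tested genes among 18 and a median of −0.02, and 0.002 with the GC and length offset. Tcirg1 and Atp6v0d2 were the genes of highest level and smallest p. The sorting and fusion list had 24 tested genes and a median of 0.03, which turned to −0.02 with the offset. In it the adaptor subunit Ap1s1 was the most abundant, at 150.1 ± 14.9 FPKM with the Vdbp label and 133 ± 13.9 FPKM with empty vector, and Arl8b, a GTPase that moves lysosomes outward, had the smallest p (unadjusted p 0.0535). In the list of transcriptional and mTORC1 control the Ragulator subunit Lamtor5 was the most abundant (150.0 ± 7.32 and 143 ± 7.82 FPKM). This list had 15 tested genes and a median of 0.02, which turned to −0.03 with the offset. Without the offset its genes with an unadjusted p under 0.05 were Fnip2, a partner of folliculin (log2 fold change −0.25, unadjusted p 0.0214), and Mitf (−0.28, unadjusted p 0.0380), which was named after its value was seen. Both had an edgeR adjusted p of 0.781, and with the GC and length offset their log2 fold changes were −0.22 and −0.18. With the offset 4 of the 15 tested genes, these among them, were lower at an unadjusted p under 0.05, against 4.64% of all tested genes.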

How the data were processed

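The authors deposited a table of unnormalised counts per Ensembl gene and an FPKM table for the same 6 libraries. The submitters' processing notes name HISAT2 and StringTie; the counting tool, strand setting and build were not given in the sources used here. Deposited FPKM equalled the counts divided by gene length and 1 constant per library (largest relative gap 5.1e-15). GENCODE M21 (GRCm38) held 99.8% of the gene IDs, 98.3% of them at identical positions. Counts were tested with edgeR 4.0.16 in R 4.3.3: filterByExpr (minimum count 10, total 15, proportion 0.7), TMM and the quasi-likelihood F test, two-sided, with Benjamini-Hochberg adjustment over 12844 genes. Tested genes held 99.9% of counts. Intervals are 95% intervals of the fit. Levels are FPKM recomputed from these counts with TMM-scaled library totals. Alternatives used limma 3.58.1 on log2 FPKM, DESeq2 1.42.0, and an offset from mgcv 1.9.3. The fit was also run on simulated counts. Fold changes were simulated there without a GC trend between libraries, so that run does not show what the fit can detect here. Members, lists and roles were chosen with earlier results of these data known. Values for every library are given for the most abundant member of each role, members with an unadjusted p under 0.05 or without overlap, and Tfeb; from each further list the most abundant gene and that with the smallest p are named.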

Additional observations from a re-analysis of the deposited data

How the results depend on the processing

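In every one of the 17 alternatives 0 members had an adjusted p under 0.05. The median log2 fold change of the members moved by less than the SD between replicates of their median (0.075), between −0.06 and 0.02 with 1 library left out. That SD is larger than the size of the median itself (−0.01), so it is a wide limit. Members above 0, 25 in the edgeR fit, numbered 27 without Vdbp replicate 2 (48.8% of all tested genes) and 12 without Vdbp replicate 1 (49.2%). They numbered 7 without both Vdbp replicate 1 and empty-vector replicate 2 (49.4%). The count of members lower at an unadjusted p under 0.05, 1 in the edgeR fit, was 2 with total count scaling, 2 without a filter on low counts, 2 with limma on log2(FPKM + 1), 2 with a pseudocount of 0.1 and 2 with a filter at 0.5 FPKM, fits in which 2.26% to 2.47% of all tested genes were lower. It was 3 with the GC and length offset (4.64%), 2 with that offset and the replicate block (3.5%), 1 to 3 with 1 library left out, and 5 without both empty-vector replicate 2 and Vdbp replicate 1 (2.22%), an alternative added after seeing the data. The count of members higher at that level, 0, was 1 without a filter (3.25% of all tested genes) and 0 to 2 with 1 library left out (2 without Vdbp replicate 3, where 6.21% of all tested genes were higher). Members without overlap, 6, numbered 7 to 14 with 1 library left out (11 without Vdbp replicate 1 or 3, 14 without Vdbp replicate 2, 10 and 13 without empty-vector replicate 1 and 3; 14.8% to 28.5% of all tested genes) and 21 without the 2 libraries named (32.5%), where fewer libraries make overlap rarer. DESeq2 and RLE scaling left these counts as they were. With the GC and length offset, alone and with the replicate block, the log2 fold change turned to −0.064 and −0.064 for Grn, −0.12 and −0.12 for Gaa, −0.10 and −0.10 for Tfeb, 0.026 and 0.026 for Atp6ap2, and 0.0065 and 0.0059 for Gla. Without the 2 libraries it turned to −0.087 for Grn, −0.024 for Atp6v0b, −0.017 for Gusb, −0.042 for Atp6v1g1, −0.083 for Npc2, −0.18 for Gaa, −0.089 for Tfeb and 0.12 for Atp6ap2. Over the fits that leave out 1 library or these 2, the values whose sign turned ranged from −0.17 to 0.049 for Psap, −0.087 to 0.14 for Grn, −0.024 to 0.31 for Atp6v0b, −0.017 to 0.14 for Gusb, −0.042 to 0.15 for Atp6v1g1, −0.083 to 0.12 for Npc2, −0.16 to 0.12 for Atp6ap2, −0.18 to 0.13 for Gaa and −0.089 to 0.14 for Tfeb. The cause of these turns was not tested. The log2 fold changes of Lyst and Idua stayed below 0 in all alternatives. Whether the replicate numbers pair the samples could not be decided. Same-numbered libraries' deviations from their group means correlated at 0.14, 0.03 and −0.27. Differently numbered ones correlated at −0.34 to 0.35, a range that holds all of these values. With the replicate block the counts were 1 lower and 0 higher, and the median of the members was −0.02. Depth limits Ids most, with 68 to 134 counts a library.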
